A study of Mus musculus with 6 samples.

Results

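10 genes of calcium entry and calcium storage were described in germinal center (GC) B cells with and without Senp1: Cacna1h, Stim1, Stim2, Orai1, Orai2, Itpr1, Itpr2, Itpr3, Atp2a2 and Atp2a3. These are the rows of the deposited expression table whose gene name is one of these 10, out of 19680 genes in all, and all 10 were among the 14678 genes tested. Cacna1h was chosen by its normalized counts, which were higher in cKO than in WT, so its difference is given below as a description without a test. The other 9 genes were taken for what their proteins do. RNA was sequenced from spleen GC B cells, the dividing B cells of an immune response, sorted as B220+ CD38- FAS+ cells on day 14 after C57BL/6 mice aged 6 to 8 weeks had received 100 µg of the hapten-protein antigen NP-CGG intraperitoneally. The 3 WT libraries are from Senp1flox/flox mice without Cre, and the 3 cKO libraries from Senp1flox/flox mice that carry Cγ1-Cre, which is active in B cells that have responded to antigen. Both groups therefore carry the floxed alleles and the immunization, and the presence of Cre cannot be told apart from the loss of Senp1, the gene for a protease that takes the modifier SUMO off proteins. The labels do not state that libraries are from separate mice, so the errors below (SD, n = 3 libraries per group) measure the spread between libraries.

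In B cells, binding of antigen to its receptor activates phospholipase C, which makes the messenger IP3. IP3 opens IP3 receptors (Itpr genes) in the endoplasmic reticulum, calcium leaves that store, and the STIM proteins sense the loss and open ORAI channels in the plasma membrane. SERCA pumps (Atp2a genes) refill the store. Cacna1h encodes Cav3.2, the pore subunit of a low-voltage-activated (T-type) calcium channel that is best known from neurons, heart and endocrine cells.

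Sequencing depth lay between 3019152 and 10339054 gene-assigned reads per library. For replicates 1, 2 and 3 it was 10339054, 5160902 and 6528052 in WT against 9657005, 3019152 and 3082897 in cKO. Senp1 measured 891 ± 23.7 normalized counts in WT against 399 ± 26.3 in cKO, with every cKO library below every WT library. By limma over all genes tested its adjusted p was 0.111, so Senp1 itself was not called at an adjusted p under 0.05. Replicate 1 of both groups lay at one end of the first principal component (33.2% of the variance), at -54.4 and -49.1 against -10.1 to 56.2 for the other libraries. The summed level of 12 GC B cell markers was 39662.5 to 44179.5 normalized counts in WT against 38551.6 to 41577.7 in cKO. The summed level of 12 T cell markers was 167 to 285 in WT against 91.9 to 302 in cKO replicates 1 and 3, but 1319 in cKO replicate 2, which also had the highest sum of 12 macrophage markers (661, against 159 to 422 in the other libraries) and of 8 naive or memory B cell markers (9549, against 2401 to 5727). In bulk RNA, more cells of a type and more RNA per cell cannot be told apart.

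Sums for 7 plasma cell markers (9156 to 13812 in WT, 8230 to 16983 in cKO), 8 neutrophil markers (10.3 to 120.3 and 18.4 to 128), 6 NK cell markers (14.5 to 91.6 and 26.6 to 62.6), 8 erythroid markers (38.9 to 58.1 and 32.5 to 135) and 8 stromal or endothelial markers (264 to 508 and 317 to 651) overlapped between the groups. The sum for 7 dendritic cell markers was lower in cKO (324 to 405 and 220.2 to 323), although 4 of the 6 tested markers had a higher and 2 a lower mean log2 value there (median log2 difference 0.58). Sums for 6 megakaryocyte or platelet markers were higher but near the level of single reads (0.854 to 3.19 and 4.09 to 5.69). Gene by gene, all 8 naive or memory B cell markers had a higher mean log2 value in cKO (median log2 difference 0.76), as did 11 of 12 macrophage markers (0.69) and 10 of 12 T cell markers (0.60), while 8 of 12 GC B cell markers had a lower one (-0.18). In each of these lists limma called 0 markers at an adjusted p under 0.05 (0.0% of all genes tested). An unadjusted p under 0.05 was met by 3 of 12 GC B cell markers and 1 of 8 naive or memory B cell markers (5.15% of all genes tested). Every cKO library lay above WT for 2 GC B cell markers (6.28% of all genes tested) and below WT for 0 (5.28%). In the other lists, every cKO library lay above WT for 1 of 8 naive or memory B cell markers and 1 of 3 tested stromal or endothelial markers. It lay below WT for 1 of 6 tested dendritic cell markers and 1 of 5 tested erythroid markers. The part of these marker differences in the values of Cacna1h and the other 9 genes was not tested. Elane, Gp1bb, Ppbp, Col1a2 and Pdpn have no row in the table.

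The promoters of Orai1, Orai2 and Itpr3 are shown because Orai1 and Orai2 are the pore genes of very unequal level, Itpr3 leads the IP3 receptors, and the start regions of all 3 hold at least 1 of 2 motifs that can be read directly. Each runs from 250 bases before to 50 bases after the RefSeq gene start (GRCm38.p6), 5′ to 3′ on the gene's strand. Capitals mark the octamer ATGCAAAT on either strand, the motif bound by Oct factors in antibody gene promoters, and the E-box CACGTG, which reads the same on both strands.

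Orai1, chr5:123014824-123015123, plus strand: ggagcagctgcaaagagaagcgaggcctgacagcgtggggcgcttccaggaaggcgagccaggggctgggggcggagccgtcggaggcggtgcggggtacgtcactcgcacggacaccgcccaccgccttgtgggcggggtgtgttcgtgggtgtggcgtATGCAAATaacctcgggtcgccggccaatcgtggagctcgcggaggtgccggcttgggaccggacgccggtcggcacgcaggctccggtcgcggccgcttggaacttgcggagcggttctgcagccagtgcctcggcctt
Orai2, chr5:136170607-136170906, minus strand: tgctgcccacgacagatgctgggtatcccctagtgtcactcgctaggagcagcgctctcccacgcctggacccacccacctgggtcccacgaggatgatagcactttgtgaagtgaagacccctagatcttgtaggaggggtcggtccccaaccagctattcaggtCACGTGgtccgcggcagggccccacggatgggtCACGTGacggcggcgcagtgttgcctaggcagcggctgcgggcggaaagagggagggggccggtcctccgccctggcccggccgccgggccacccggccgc
Itpr3, chr17:27057054-27057353, plus strand: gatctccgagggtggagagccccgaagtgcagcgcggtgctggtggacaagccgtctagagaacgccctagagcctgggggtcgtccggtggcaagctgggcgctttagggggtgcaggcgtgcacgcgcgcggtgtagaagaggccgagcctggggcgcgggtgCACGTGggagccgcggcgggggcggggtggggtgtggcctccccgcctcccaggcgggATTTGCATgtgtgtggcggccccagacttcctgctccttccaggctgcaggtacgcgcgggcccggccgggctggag

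The octamer starts at base -90 of Orai1 and at base -27 of Itpr3, and the E-box at bases -84 and -51 of Orai2 and at base -85 of Itpr3, counted from the gene start. The GENCODE M21 span of Orai2, given below, reaches further upstream (to 136170713) than this RefSeq start. Its E-box at base -51 therefore lies inside that span. Neither motif overlaps the other in these windows. Of all 32851 promoter windows of the same length, 1.74% hold the octamer and 7.15% the E-box. RefSeq promoters matched 7 of the 10 genes, and the windows of Stim1, Stim2, Itpr2 and Atp2a3 hold neither motif. The table has no window for Cacna1h, Itpr1 and Atp2a2. All 7 windows are rich in G and C (68.0% to 78.7%, against a median of 52.7% over all windows) and none holds TATAAA, which 13.6% of all windows hold. The motifs were chosen after the sequences had been read, and a match describes letters, not a bound site.

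On GRCm38, Stim1 (chromosome 7, 102267806 to 102437319), Itpr1 (chromosome 6, 108213096 to 108551109), Itpr3 (chromosome 17, 27057304 to 27122223) and Atp2a3 (chromosome 11, 72961169 to 72993044) lie on the plus strand, as do Stim2 (chromosome 5, 53998499 to 54121057) and Orai1 (chromosome 5, 123015074 to 123030456). Orai2 (chromosome 5, 136147459 to 136170713), Atp2a2 (chromosome 5, 122453513 to 122502225) and Itpr2 (chromosome 6, 146108299 to 146502223) lie on the minus strand. Itpr3 shares 233 of its 9019 exon bases with the antisense gene Itpr3os, Itpr1 181 and 108 of 18319 with Gm44101 and Gm44040, Atp2a2 83 of 6081 with Gm43361 and Orai1 7 of 2295 with Gm2479. None of these opposite-strand genes has a row in the table.

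Per length, the SERCA3 pump gene Atp2a3 stood far above the other 9 genes in WT cells, and Cacna1h was next to last. Levels between genes are compared here as normalized counts per kilobase of exon, with exon lengths from GENCODE M21. Atp2a3 measured 1082 ± 115 per kilobase in WT, Itpr3 229 ± 20.1 and the SERCA2 pump gene Atp2a2 225 ± 5.75. Then came Orai2 (59.6 ± 7.76), Stim2 (47.5 ± 9.27), Itpr2 (43.4 ± 5.59), Stim1 (31.0 ± 3.84), Itpr1 (29.8 ± 11.7), Cacna1h (28.8 ± 8.18) and Orai1 (10.6 ± 1.32). In WT the libraries of Itpr3 and Atp2a2 overlapped, as did those of neighbours from Orai2 to Itpr2 and from Stim1 to Cacna1h. In cKO, Cacna1h was the fourth of the 10 at 86.1 ± 26.0 per kilobase, below all libraries of Atp2a2 (203 ± 23.2) and overlapping Orai2 (67.2 ± 11.4). Atp2a3 (998 ± 192) and Itpr3 (241 ± 8.45) kept the top places. Orai1 (17.8 ± 6.12) kept the last by its mean, but its cKO libraries overlapped those of Stim1 (27.5 ± 4.47).

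**Figure D1:**
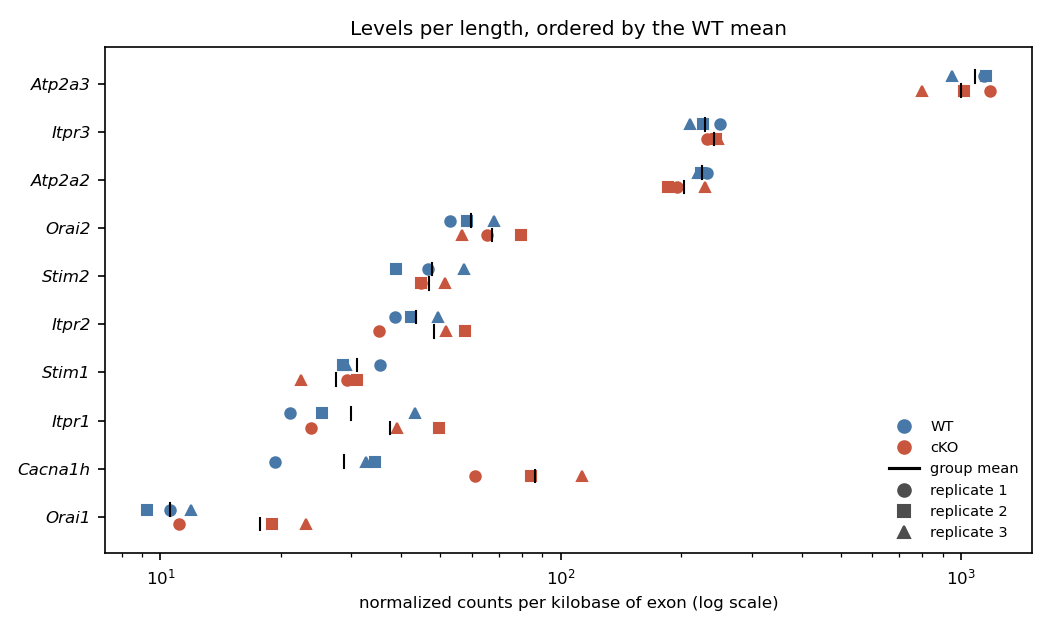
Levels of the 10 genes as normalized counts per kilobase of exon (log scale), in the order of the WT mean, with 1 symbol per library and a black bar at each group mean. Cacna1h is the gene whose cKO libraries (61.2 to 113 per kilobase) all lie above its WT libraries (19.4 to 34.3).

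Cacna1h had about 3 times as many transcripts in cKO as in WT. In the order of replicate number, here and below, it measured 189, 335 and 318 normalized counts in WT against 597, 822 and 1103 in cKO. The groups did not overlap, and the lowest cKO library was 1.78-fold above the highest WT library. Of all genes tested, 6.28% had every cKO library above every WT library, and since Cacna1h was chosen for its cKO counts, nothing is read from its place among them. These values rest on 374, 315 and 372 reads in WT against 1101, 433 and 540 in cKO, so the gene is well above the level of single reads in each library. The ratio of the group means was 2.99, and the log2 difference was 1.58 ± 0.28 (SE).

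The difference was similar within replicate 1, which stood apart, and within replicates 2 and 3. These splits hold the values that chose Cacna1h and are a description. In replicate 1, cKO was 3.16-fold above WT (log2 difference 1.65). The mean of cKO replicates 2 and 3 was 2.95-fold above that of WT replicates 2 and 3 (log2 difference 1.54). Replicate 1 was the lowest library in both groups. The mean of replicates 2 and 3 was 1.73-fold above replicate 1 in WT against 1.61-fold above it in cKO. Without cKO replicate 2, the library with the most T cell and macrophage transcripts, the log2 difference was 1.57. The highest Cacna1h value was in cKO replicate 3, where the T cell sum was lowest (91.9). The naive or memory B cell sum, like Cacna1h, was lowest in replicate 1 of each group (2401 in WT and 4067 in cKO). The part of other cell types, naive or memory B cells included, in the difference was not tested. The share of reads from mitochondrial genes was 2.71%, 7.92% and 9.83% in WT, against 3.66%, 12.3% and 19.1% in cKO, and within each group the library with the lowest share was also the lowest for Cacna1h. The part of that share and of the sequencing depth in the difference was not tested.

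**Figure D2:**
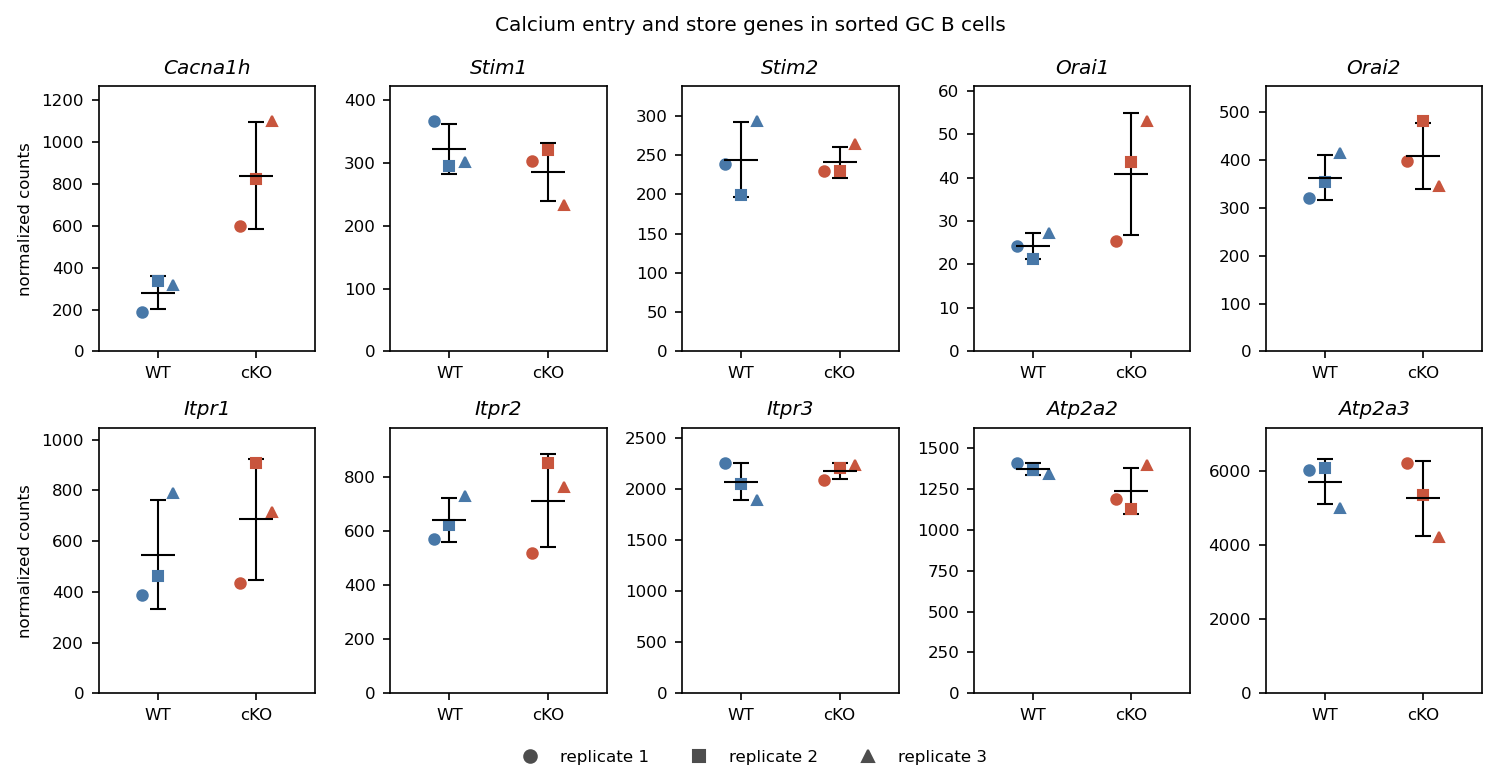
Normalized counts of each gene in the 6 libraries (circle, square and triangle for replicates 1, 2 and 3), with the group mean and SD as black bars and each axis starting at 0. Cacna1h is separated between WT (189 to 335) and cKO (597 to 1103), and the libraries of the other 9 genes overlap.

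Cacna1h (ENSMUSG00000024112) lies on chromosome 17 at 25374285 to 25433783 of GRCm38, on the minus strand. At its end, 158 of its 9763 exon bases are shared with Tpsg1, a mast cell tryptase gene on the opposite strand that has no row in the table. Of its neighbours, the testis gene Tekt4 and the somatostatin receptor gene Sstr5 were at most at 2.04 and 0.506 normalized counts in any library.

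Among the pore subunit genes of voltage-gated calcium channels, 9 had a row in the table and 6 were tested, Cacna1h included. The other T-type gene with a row, Cacna1i, measured 22.1 ± 3.55 per kilobase in WT against 29.1 ± 9.45 in cKO. Per length, Cacna1h thus made up 46.7%, 65.0% and 56.0% of the T-type transcripts in WT against 67.2%, 68.8% and 85.4% in cKO. This share does not depend on the scaling between libraries, and the highest WT share (65.0%) lay just below the lowest cKO share (67.2%). It holds the Cacna1h values that chose the gene and is a description. The L-type genes Cacna1s (17.6 ± 1.73 per kilobase in WT against 17.8 ± 2.71 in cKO) and Cacna1d (10.1 ± 6.00 and 10.3 ± 3.91) had nearly equal means in the groups, Cacna1e (2.46 ± 0.413 and 2.63 ± 1.39) and Cacna1a (1.19 ± 0.179 and 1.13 ± 0.584) were low, and Cacna1b, Cacna1c and Cacna1f were under the filter. The accessory β and α2δ subunit genes were low: Cacnb1, Cacnb3, Cacnb4, Cacna2d2 and Cacna2d4 had group means of 1.598 to 9.98 normalized counts.

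The calcium sensors of the store did not separate the groups. Stim1, the main activator of ORAI channels, measured 368, 296 and 302 normalized counts in WT against 303, 321 and 233 in cKO. The groups overlapped, and the log2 difference was -0.18 (95% confidence interval -0.58 to 0.22). Stim2, which responds to smaller losses of store calcium, measured 239, 199 and 294 in WT against 229.4, 229.7 and 263 in cKO. The WT libraries bracketed those of cKO, and the log2 difference was -0.0038 (-0.41 to 0.41). Per length, Stim2 made up 60.2% ± 5.28 of the 2 STIM genes in WT against 63.1% ± 5.68 in cKO.

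The pore genes of store-operated entry were unequal in level, and Orai1 had the lowest mean of the 10 per length in both groups. Orai1, the pore of the classical calcium release-activated current, measured 24.3, 21.3 and 27.3 normalized counts in WT against 25.5, 43.7 and 53.1 in cKO. Its cKO replicate 1 fell within the WT range, while cKO replicates 2 and 3 lay above it. These values rest on 20 to 48 reads per library, the fewest of the 10 genes. The log2 difference was 0.67 (95% confidence interval -0.14 to 1.47), which did not pass limma's adjusted test over all genes (adjusted p = 0.915). It was 0.068 within replicate 1 and 0.97 within replicates 2 and 3, with cKO replicate 1 left out it was also 0.97, and with cKO replicate 3 left out 0.45. The part of the depth, of replicate 1 and of the mitochondrial share in this split was not tested.

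Orai2, a pore subunit that forms channels with ORAI1 and dampens their current in T cells, measured 321, 353 and 413 normalized counts in WT against 397, 482 and 345 in cKO. The groups overlapped (log2 difference 0.17, 95% confidence interval -0.22 to 0.56). The third family gene, Orai3, is not one of the 10 and measured 122 ± 10.9 in WT against 127 ± 22.9 in cKO. Per length, Orai2 and Orai3 made up 46.9% ± 4.67 and 44.8% ± 4.90 of the 3 ORAI genes in WT, and Orai1 8.32% ± 0.683. In cKO, Orai1 made up 7.57%, 12.9% and 16.6%, so the library of replicate 1 had a share like the WT libraries (7.60% to 8.95%) and the other two had higher ones.

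The IP3 receptor genes, which release calcium from the store, were led by Itpr3 in every library. Itpr3 measured 2255, 2048 and 1894 normalized counts in WT against 2087, 2200 and 2233 in cKO, and all its cKO values lay within the WT range (log2 difference 0.076, 95% confidence interval -0.21 to 0.36). Itpr2 measured 570, 624 and 732 in WT against 521, 854 and 764 in cKO. Its cKO libraries spanned a wider range than, and overlapped, those of WT (log2 difference 0.13, -0.33 to 0.58). Itpr1, the type that dominates in brain, measured 386, 463 and 791 in WT against 435, 909 and 713 in cKO. It varied most of the 9 genes within WT, with WT replicate 3 above 2 of the cKO libraries (log2 difference 0.33, -0.40 to 1.06).

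Itpr1, Itpr2 and Orai2 had their highest value in cKO replicate 2, the library with the T cell sum of 1319. Without that library the log2 difference was 0.095 for Itpr1, -0.017 for Itpr2 and 0.039 for Orai2. The part of other cell types in these values was not tested. Per length, Itpr3 made up 80.8%, 77.1% and 69.4% of the 3 IP3 receptor genes in WT against 79.7%, 69.4% and 73.2% in cKO. Itpr2 made up 14.4% ± 1.96 in WT against 14.6% ± 2.23 in cKO, and Itpr1 9.89% ± 3.90 and 11.3% ± 2.98.

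The SERCA pump genes, which refill the store, had slightly lower cKO means. Atp2a2, the pump found in most tissues, measured 1409, 1363 and 1340 normalized counts in WT against 1185, 1124 and 1393 in cKO. Of the cKO libraries 2 lay below all WT libraries and cKO replicate 3 lay within them (log2 difference -0.16, 95% confidence interval -0.45 to 0.14). Atp2a3, the pump typical of blood cells, measured 6025, 6097 and 5013 in WT against 6232, 5358 and 4214 in cKO. The groups overlapped, with the highest and the lowest value both in cKO (log2 difference -0.13, -0.54 to 0.28). Per length, Atp2a3 made up 82.6% ± 1.39 of the 3 SERCA genes in WT against 82.7% ± 4.36 in cKO, and the muscle gene Atp2a1 at most 0.105% in any library.

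**Figure D3:**
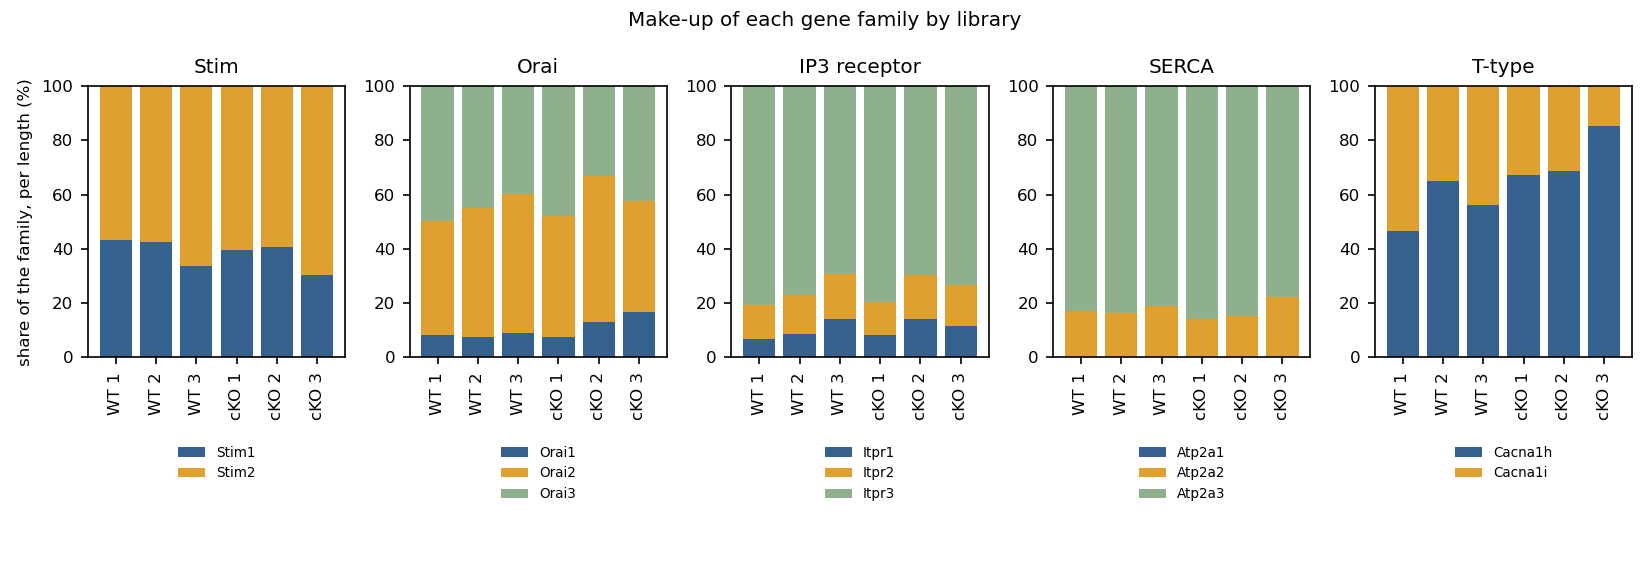
Share (%) of each gene in its family per library, from normalized counts per kilobase of exon, for the STIM, ORAI, IP3 receptor, SERCA and T-type channel genes with a row in the table. Cacna1h holds 46.7% to 65.0% of T-type transcripts in WT against 67.2% to 85.4% in cKO, while Itpr3 and Atp2a3 lead their families in all 6 libraries.

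None of the 9 genes beside Cacna1h passed the test. With limma on log2 normalized counts, 0 of 9 had an adjusted p under 0.05 over all 14678 genes (0.915 to 0.998) and 0 had an unadjusted p under 0.05, where the share over all genes was 0.0% adjusted and 5.15% unadjusted. In replicates 2 and 3 alone and without cKO replicate 1, 1 of the 9 (Orai1) had an unadjusted p under 0.05, but its limma adjusted p was 0.705 and 0.521. edgeR and DESeq2 on recovered reads also called 0 of the 9 (0 at an unadjusted p under 0.05 by each), beside 0.0% and 0.197% of the genes they adjusted. The groups overlapped for all 9, while over all genes tested 11.6% had groups that did not overlap. Of the 9, 5 had a higher and 4 a lower mean log2 value in cKO, with a median log2 difference of 0.076 beside -0.0019 over all genes. The confidence intervals set how large a change these libraries leave room for: as folds of cKO over WT they ran from 0.866 to 1.28 for Itpr3 and from 0.732 to 1.098 for Atp2a2, the narrowest, and from 0.909 to 2.78 for Orai1, the widest. A missed threshold does not show that a gene was equal in the groups, and Senp1 itself missed the adjusted one.

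Divided by the level of Orai2, Stim1 or Atp2a3 in the same library, Cacna1h remained separated between the groups. Such a ratio does not depend on the scaling between libraries. Per length, the ratio of Cacna1h to Orai2 was 0.367, 0.591 and 0.478 in WT against 0.935, 1.06 and 1.99 in cKO. Its ratio to Stim1 was 0.546, 1.20 and 1.12 in WT against 2.10, 2.72 and 5.03 in cKO. Against Atp2a3 the ratio stayed small, 0.0170 to 0.0343 in WT against 0.0518 to 0.142 in cKO. These ratios share the Cacna1h values that chose the gene and are a description.

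Around these 10 genes, 8 lists of the calcium pathway held 141 tested genes, and 0 of them passed limma's adjusted test (smallest adjusted p = 0.915). At an unadjusted p under 0.05 there were 3 higher and 3 lower genes, where 2.98% and 2.17% of all genes tested were. Groups did not overlap for 13 higher genes (9.22%, against 6.28% of all genes tested) and 8 lower genes (5.67%, against 5.28%). Over all genes tested, 7303 had a higher and 7375 a lower mean log2 value in cKO. All values that follow are mean normalized counts with SD, first in WT and then in cKO.

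From the antigen receptor to phospholipase C, 15 of 23 tested genes had a higher and 8 a lower cKO value (median log2 difference 0.087). The phospholipase gene Plcg1 measured 212 ± 6.59 and 279 ± 47.3, with every cKO library above WT. The kinase gene Fyn (527 ± 83.4 and 380.4 ± 55.3) and the tetraspanin gene Cd81 (682 ± 40.5 and 562 ± 42.8) had every cKO library below WT. Plcg2, the phospholipase that B cells mainly use, had close means at 4299 ± 409 and 4340 ± 474.

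For partners of store-operated entry, 7 of 9 tested genes had a higher and 2 a lower cKO value (median 0.40). That median is the value of Homer3, a gene of low level (8.50 ± 6.01 and 9.82 ± 5.17). Cracr2a (4.71 ± 1.94 and 8.19 ± 2.81) and Asph (2.04 ± 1.92 and 3.94 ± 2.12), counted as higher, were low as well. The list also held Saraf, an inhibitor of STIM1, at 128 ± 15.4 and 184 ± 74.3, and the contact site genes Esyt1 (507 ± 71.8 and 696 ± 234) and Esyt2 (304 ± 42.8 and 255 ± 19.8). Tmem110, whose product supports STIM1 at contact sites, measured 122.9 ± 18.9 and 117 ± 13.2. These last 4 genes had overlapping groups, and Saraf and Esyt1 were highest in cKO replicate 2 (268 and 941), the library with most T cell and macrophage transcripts.

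Beside Cacna1h, 8 of 13 tested voltage-gated channel subunits and partners had a higher and 5 a lower cKO value (median 0.014). Ahnak, a large scaffold protein that binds channel subunits, measured 347 ± 242 and 740 ± 741, with 1594 in cKO replicate 2, and the adaptor gene Stac2 109 ± 38.9 and 147 ± 72.5. Of 16 other calcium-permeable channels, 12 had a higher and 4 a lower value (median 0.33). The lysosomal channel gene Mcoln1 (68.5 ± 4.80 and 94.97 ± 12.3) and the cation channel gene Trpv2 (444 ± 37.0 and 526 ± 2.64) had every cKO library above WT, while the mechanosensitive channel gene Piezo1 (549 ± 18.5 and 695 ± 130) and the channel kinase gene Trpm7 (523 ± 90.1 and 431 ± 98.1) overlapped.

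Calcium export genes had a higher cKO value in 6 and a lower one in 2 of 8 (median 0.21), with the Golgi pump gene Atp2c1 at 435 ± 26.4 and 389 ± 61.2. The pump partners in this list overlapped as well, with Bsg at 394 ± 56.0 and 445 ± 42.7 and Nptn at 311 ± 64.7 and 299 ± 60.2. The mitochondrial sodium-calcium exchanger gene Slc8b1 measured 70.7 ± 3.90 and 84.3 ± 15.8. Of 27 other store genes 15 were higher and 12 lower (median 0.012). The calcium-binding chaperone gene Calr had every cKO library above WT (3538 ± 276 and 4174 ± 571) and Ahcyl1, which encodes an inhibitor of IP3 receptors, every one below (450.0 ± 19.1 and 394 ± 25.1). The chaperone gene Hspa5 (4767 ± 858 and 5763 ± 1637) and Erp44, which binds the type 1 IP3 receptor (1700.2 ± 351 and 1464 ± 211), overlapped.

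Mitochondrial uptake genes were split, 7 higher and 8 lower of 15 (median -0.0064). The mitochondrial chaperone gene Hspa9 had every cKO library above WT (1820 ± 104 and 2072 ± 270). Mcur1, a regulator gene of the mitochondrial uniporter, had every one below (209 ± 10.6 and 169 ± 23.5), and Smdt1, a uniporter subunit gene, overlapped (406 ± 52.4 and 457 ± 29.0). Downstream, 11 of 30 calmodulin, calcineurin, NFAT and CaM kinase genes had a higher and 19 a lower cKO value (median -0.11). Cabin1, an inhibitor of calcineurin, measured 848 ± 51.3 and 1078 ± 41.5 and the kinase gene Camk2g 118 ± 8.70 and 152 ± 20.04, each with every cKO library above WT. The calmodulin gene Calm2 was below WT in each cKO library (1892 ± 127 and 1507 ± 45.8), while Nfatc3, a transcription factor gene that calcineurin activates, overlapped (1698 ± 161 and 1335 ± 178). None of these genes passed limma's adjusted test.

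**Figure D4:**
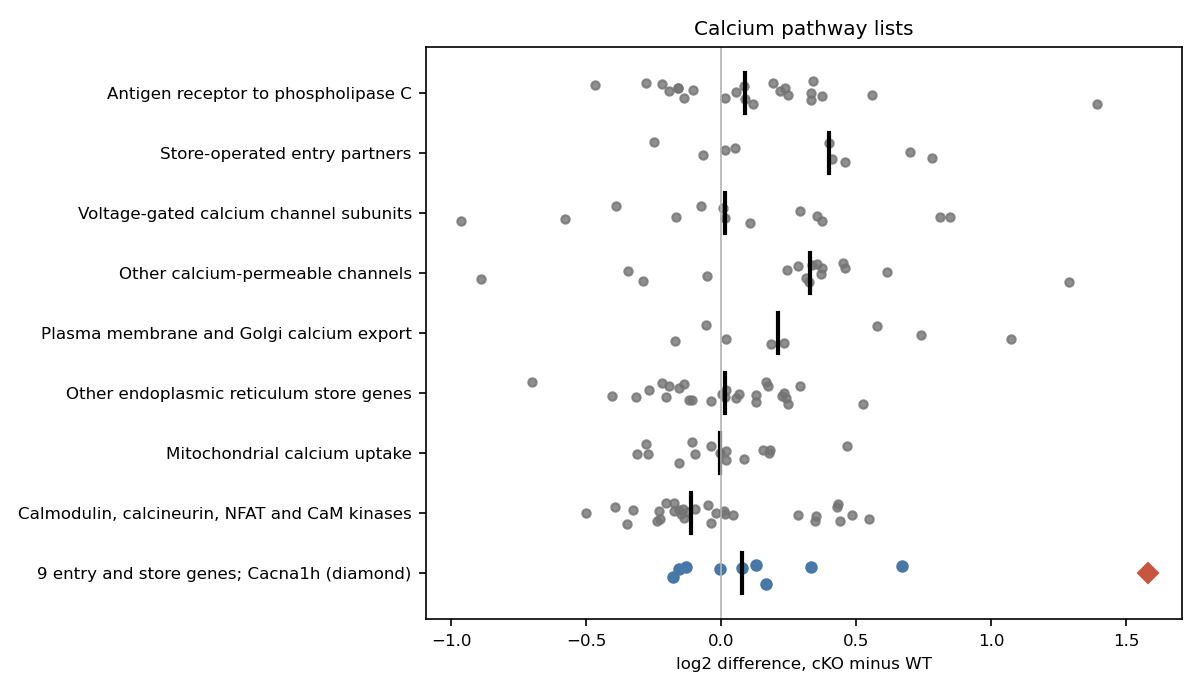
Log2 difference of cKO minus WT for each tested gene of the 8 calcium pathway lists (grey points), for the 9 entry and store genes (blue) and for Cacna1h (diamond), with a black bar at each median (Cacna1h is in no median). List medians range from -0.11 for calmodulin, calcineurin, NFAT and CaM kinases to 0.40 for partners of store-operated entry, and Cacna1h lies at 1.58.

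The genes whose pattern over the 6 libraries came closest to that of Cacna1h were Shisa8, Fgd2, Shank1, Zfp692 and Pld4. Likeness was measured as the root mean square distance between deviations of log2(normalized count + 1) from each gene's own mean, over 8054 genes with a mean of at least 50. The distance was 0.31 for Shisa8, 0.38 for Fgd2, 0.40 for Shank1, 0.41 for Zfp692 and 0.42 for Pld4, against a median of 0.91 over all 8054 genes. Fgd2, an exchange factor gene for the small GTPase Cdc42, measured 171, 200.1 and 237 in WT against 341, 569 and 429 in cKO. Pld4, an endolysosomal exonuclease gene, measured 483, 627 and 747 in WT against 813, 1340 and 1211 in cKO. Shank1, a scaffold gene of excitatory synapses, measured 44.5, 94.7 and 87.1 in WT against 100.3, 165 and 143 in cKO. In these 3 genes, as in Cacna1h, replicate 1 was the lowest library of each group and the groups did not overlap.

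Shisa8 was level in WT (47.5, 45.8 and 47.0) and highest in cKO replicate 3 (110, 112 and 163). The zinc finger gene Zfp692 (33.9, 60.7 and 59.8 in WT against 55.9, 101 and 114 in cKO) had overlapping groups. Of the 8 other entry and store genes with a mean of at least 50, the closest was Itpr1 at a distance of 0.71, and Stim1 was the farthest at 1.02. Since Cacna1h differed between the groups by choice, genes near it share that difference, and 6 libraries are few for such a comparison.

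**Figure D5:**
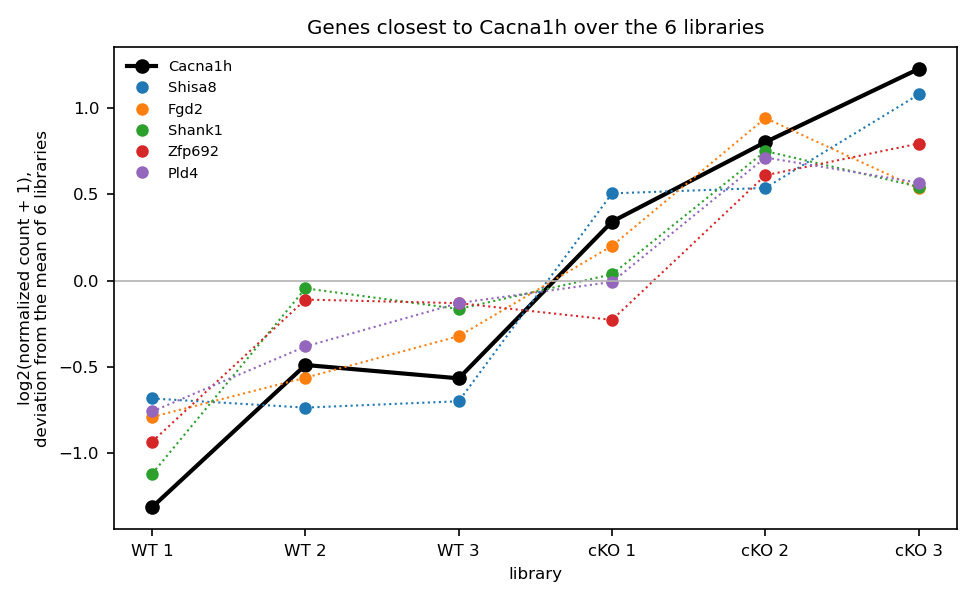
Deviation of log2(normalized count + 1) from each gene's mean over the 6 libraries, for Cacna1h (black) and the 5 genes closest to it. Lines only join the points of a gene, and replicate numbers have no order. All 5 genes have their lowest value in a WT library and their highest in cKO replicate 2 or 3.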

How the data were processed

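RNA sequencing of 6 libraries (3 WT, 3 cKO, grouped by title) was used. HTSeq and DESeq2, the aligners TopHat2, HISAT and HISAT2, SAMtools and the mm10 genome are named in the submitters' processing notes, with no versions or roles. Annotation release, strand setting and treatment of multi-mapped reads: not given in the sources used here. Reads in exon bases shared by opposite strands therefore cannot be assigned. The authors deposited a signal per gene and library, counts divided by a size factor. The authors' deposited log2 fold change, Wald score, p-value and adjusted p-value per gene, named so per the file headers, were not used for any result. Every value was a whole multiple of the value of 1 read (100% within 0.01 read), with 1 read equal to between 0.506 and 1.06 normalized counts in a WT library and between 0.542 and 2.04 in a cKO library. The same normalized count therefore rests on the fewest reads in cKO replicates 2 and 3. Orai1 itself had its fewest reads in WT replicate 2 (20, against 23 and 26 in cKO replicates 2 and 3).

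The test was limma 3.58.1 under R 4.3.3, with its trend option, on log2(normalized count + 1), over genes with a mean of at least 1, genotype alone, Benjamini-Hochberg adjusted p under 0.05. Log2 differences on this scale understate changes of low genes. edgeR 4.0.16 and DESeq2 1.42.0 on recovered reads, other scalings, pseudocounts, filters and left-out libraries were alternatives. The fit was tested on simulated counts. Members and gene lists were chosen with earlier results of these data known. Named genes are the 10 genes, Senp1, tested genes that start within 100 kb of Cacna1h, the 5 genes nearest to it in pattern, and from each list up to 4 tested genes with the smallest p and a mean of at least 20. A few single genes that this rule takes are not reported here. Orai3, Plcg2, Homer3, Cracr2a, Asph, the other subunit genes, Atp2a1, Tekt4 and Sstr5 were added outside that rule. Promoter sequences are from RefSeq (GRCm38.p6), and positions and exon lengths from GENCODE M21 (GRCm38), which holds 19563 of the gene identifiers.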

Additional observations from a re-analysis of the deposited data

How the results depend on the processing

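Over 18 alternatives, 0 of the 9 genes beside Cacna1h was called, and over all genes 0 were called except 23 by DESeq2 on recovered reads, 3 with a term for replicate 1 and 1 with the replicate block. The log2 difference of Cacna1h stayed between 1.32 (without WT replicate 1) and 1.80 (without cKO replicate 1). Signs turned in 7 of 180 values of single genes: Itpr3 was -0.0033 with library totals, and Stim2 0.024 in replicates 2 and 3 alone. With single libraries left out, the log2 difference ranged from -0.26 to 0.022 for Atp2a3 (positive without cKO replicate 3), from -0.017 to 0.34 for Itpr2 (negative without cKO replicate 2) and from -0.14 to 0.14 for Stim2 (positive without WT replicate 3 and without either of cKO replicates 1 and 2). The cause was not tested. For Itpr1 it ranged from 0.095 to 0.63 and for Orai1 from 0.45 to 0.97. Whether replicate numbers pair the libraries was checked from deviations from the group means: the correlation was 0.69, 0.054 and 0.31 for numbers 1, 2 and 3, and WT replicate 2 correlated best with cKO replicate 3 (0.15). The replicate 1 libraries deviated together, but not every pair exceeded 0.1, so the numbers were not taken as pairs. Depth limits Orai1, where 20 reads stand behind WT replicate 2.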
